A study of Mus musculus with 12 samples.

Results

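Murine serum was examined for 8 mature miRNAs of the imprinted Dlk1-Dio3 region of chromosome 12, namely miR-127-3p (MIMAT0000139), miR-134-5p (MIMAT0000146), miR-136-5p (MIMAT0000148), miR-379-5p (MIMAT0000743), miR-382-5p (MIMAT0000747), miR-409-3p (MIMAT0001090), miR-411-5p (MIMAT0004747) and miR-434-3p (MIMAT0001422). The 8 were chosen by these miRBase accessions. The mouse count tables of the series list 874 mature miRNAs in at least 1 library, among them 7 of the 8, miR-136-5p being the exception, and 5 of the 8 had counts in all 6 libraries depleted of tRNA fragments. The 12 small RNA libraries came from 3 female athymic NCr nude mice, numbered 1046, 1047 and 1069, which were 4 to 6 weeks old when human SH-SY5Y cells, an established neuroblastoma line, were placed beneath the capsule of the kidney. Serum was drawn before (untreated) and 2 weeks after the injection, and the RNA of each of the 6 sera was sequenced as 2 aliquots, 1 depleted of 5′ tRNA fragments with biotinylated DNA probes and 1 undepleted. This gave 4 groups of 3 libraries, before and after injection and depleted and undepleted. These libraries hold no mice without tumour cells at the later time, so the tumour and the elapsed time cannot be told apart, and the athymic host lacks most T cells.

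The Dlk1-Dio3 region is expressed according to parental origin. Its protein-coding genes, Dlk1, Rtl1 and Dio3, are transcribed from the paternal chromosome, whereas its long non-coding RNAs, snoRNAs and miRNAs come from the maternal chromosome. The miRNAs are cut from long maternal transcripts, and the region is known as one of the largest miRNA clusters of the mammalian genome, with high expression in embryo, placenta and brain. A miRNA finds its targets mainly through the seed, the bases near its 5′ end that pair with a messenger RNA.

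The mature sequences are shown to make clear that the 8 members are not copies of each other, and to place a pair of overlapping miRNAs that matter for miR-136-5p further on. They were taken from the RefSeq annotation of GRCm38.p6, in which all 8 names were found, and the capitals mark the seed, bases 2 to 8.
mmu-miR-127-3p: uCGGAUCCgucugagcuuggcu
mmu-miR-434-3p: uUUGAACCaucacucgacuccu
mmu-miR-136-5p: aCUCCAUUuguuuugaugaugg
mmu-miR-379-5p: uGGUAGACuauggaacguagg
mmu-miR-411-5p: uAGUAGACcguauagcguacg
mmu-miR-382-5p: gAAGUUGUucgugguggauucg
mmu-miR-134-5p: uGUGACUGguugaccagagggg
mmu-miR-409-3p: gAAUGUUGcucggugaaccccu
mmu-miR-3071-3p (not a member): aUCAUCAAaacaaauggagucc

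The 8 members had 8 distinct seeds, and 6 of them shared their seed with no other mature mouse miRNA in the RefSeq table. The closest pair, miR-379-5p and miR-411-5p, had 14 of 21 bases and 6 of 7 seed bases in common. The members were 21 to 22 bases long, with a GC content of 36.4% to 59.1%.

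On GRCm38 the 8 members lie on the plus strand of chromosome 12 within 150338 bases. A first group lies antisense to the coding exon of Rtl1, a retrotransposon-derived gene needed in the placenta, whose transcript these miRNAs match perfectly. It holds miR-127-3p (chr12:109592888-109592909), miR-434-3p (chr12:109594565-109594586) and miR-136-5p (chr12:109595331-109595352). A second group, miR-379-5p (chr12:109709065-109709085) and miR-411-5p (chr12:109710190-109710210), had no annotated host gene besides the miRNA itself. The third group lies in the non-coding gene Mirg. In it, miR-382-5p (chr12:109733781-109733802) and miR-409-3p (chr12:109743204-109743225) fall in introns and miR-134-5p (chr12:109734145-109734166) in an exon. miR-134 is best known from neurons, where it acts on Limk1 in dendritic spines.

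The depth set what could be seen of these miRNAs. The mouse tables held 938706 to 2271549 miRNA counts in the depleted libraries and 21235 to 97183 in the undepleted ones, so that a count of 0 allowed a level of up to 1.32 to 3.20 cpm (counts-per-million, relative to all mouse miRNA counts of the library) in the former and 30.9 to 141 cpm in the latter, taking 3 counts as the limit. Intervals and limits given here cover counting error only, since the reads carried no molecular identifiers. At a minimum of 4 counts, 5 members were detected in every depleted library and 1 to 3 in an undepleted library.

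miR-434-3p was the most abundant of the members in serum. Ranked by mean cpm in the depleted libraries among 861 listed miRNAs, it stood at position 93. It was followed by miR-134-5p, then by miR-409-3p at position 162, miR-411-5p at 181 and miR-127-3p at 224, with miR-379-5p far below at 697. miR-434-3p alone made up 59.6% to 72.4% of the counts of the 8 members in a depleted library and 63.6% to 78.8% in an undepleted library. The mean before injection was 542.6 ± 244 cpm (SD, n = 3) for miR-434-3p, against 86.1 ± 45.4 cpm for miR-134-5p, 81.3 ± 47.8 cpm for miR-409-3p, 71.3 ± 63.4 cpm for miR-411-5p and 27.3 ± 16.7 cpm for miR-127-3p (n = 3 for each). The lowest miR-434-3p level of the depleted libraries, 309 cpm, was above the highest level of every other member. miR-134-5p, miR-409-3p and miR-411-5p overlapped in their ranges and were not ordered beyond their spread. These are read shares, and small RNA ligation efficiency differs between sequences, so the order describes the libraries and not molecules in serum.

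The library of mouse 1069 before injection stood apart. Its aliquots also had the fewest mouse miRNA counts of their kind, 938706 depleted and 21235 undepleted. Summed over the 8 members, its depleted aliquot held 1279 cpm (95% Wilson interval 1209 to 1354), whereas mice 1046 and 1047 had 650 and 498 cpm before injection. After injection the sums were 708 cpm in mouse 1046, 719 cpm in mouse 1047 and 519 cpm in mouse 1069. The other aliquot of the same serum, sequenced without depletion, had 1036 cpm (22 counts, interval 684 to 1568), against 244 to 635 cpm in the remaining 5 undepleted libraries. It was therefore the highest library for the members in both series of aliquots, and the fitted changes between time points are also given without it. In the same depleted library miR-9-5p, a neural miRNA, had 47 counts, against 0 and 1 in the other mice before injection and 11 to 40 after it, and miR-124-3p, the other neural marker checked, had 6 counts against 0 and 1 before and 8 to 26 after. The part of neural RNA in the members' levels was not tested.

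The comparison of serum before and after injection asked which miRNAs change once a tumour is present. In the depleted libraries none of the 5 members that could be tested passed the threshold. DESeq2, fitted to all miRNAs and calling an adjusted p below 0.05 with at least a 2-fold change, called 33 of 310 tested miRNAs (10.6%), 15 higher (4.84%) and 18 lower (5.81%). With 0 of 5 members among them, 1 of the 5 had an unadjusted p below 0.05. So had 93 of the 861 miRNAs listed in these libraries, a base that includes those without an adjusted p. All 5 fitted log2 fold changes were below 0, with a median of −0.43, beside −0.09 over all 310 miRNAs tested. For any change in serum, the number of releasing cells and the miRNA released per cell cannot be told apart.

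Among the Rtl1-antisense members, miR-434-3p had 603, 656 and 770 counts in mice 1046, 1047 and 1069 before injection and 904, 879 and 703 after it. Scaled by the DESeq2 size factors, these were 807, 722 and 1228 before and 726, 727 and 463 after. The largest difference was in mouse 1069, and the groups overlapped. The fitted log2 fold change was −0.48 (SE 0.29, DESeq2 adjusted p = 0.246), with a 95% interval of −1.05 to 0.09. Without the library of mouse 1069 before injection it was −0.22.

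miR-127-3p had 31, 24 and 43 counts before and 59, 49 and 31 after, or 41.5, 26.4 and 68.6 and then 47.4, 40.5 and 20.4 as normalised counts. It was higher after injection in mice 1046 and 1047 and lower in mouse 1069. The log2 fold change of −0.26 (SE 0.43, DESeq2 adjusted p = 0.737) turned to 0.09 without the library of mouse 1069 before injection.

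miR-411-5p, of the pair without a host gene, showed the largest fitted change of the members. Its counts were 59, 48 and 135 before and 88, 55 and 52 after, and its normalised counts 78.9, 52.8 and 215 before and 70.6, 45.5 and 34.2 after. It was lower after injection in 3 of 3 mice on this scale, by far the most in mouse 1069, and the groups overlapped. The log2 fold change was −0.97 (SE 0.42, unadjusted p = 0.0203), and it did not pass the adjustment over all miRNAs (DESeq2 adjusted p = 0.101). Without the library of mouse 1047 before injection it passed (−1.26, DESeq2 adjusted p = 0.0247), and without that of mouse 1069 it was −0.30 (adjusted p = 0.614). The scale matters for such small shifts. As cpm, miR-411-5p was lower in 1 of 3 mice only, because size-factor scaling placed the libraries after injection lower by 0.27 (log2) relative to cpm than those before.

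Its neighbour miR-379-5p was at the limit of detection. It had 2 counts in the depleted library of mouse 1046 before injection and 0 in the remaining 11 libraries. No level or change can be read from it.

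Of the Mirg members, miR-134-5p had 78, 113 and 130 counts before and 107, 169 and 209 after, or 104, 124 and 207 and then 85.9, 140 and 138 normalised counts. The log2 fold change was −0.23 (SE 0.34, DESeq2 adjusted p = 0.693) and turned to 0.10 without the library of mouse 1069 before injection. miR-409-3p had 104, 65 and 123 counts before and 104, 100 and 184 after, or 139, 71.6 and 196 and then 83.5, 82.7 and 121 normalised counts. It was lower in 2 of 3 mice, with a log2 fold change of −0.43 (SE 0.36, DESeq2 adjusted p = 0.421) that became −0.09 without the same library. For both miRNAs the groups overlapped. miR-382-5p had no count in any depleted library.

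The 95% intervals of miR-127-3p, miR-134-5p, miR-409-3p and miR-434-3p held changes in either direction, unlike that of miR-411-5p. The interval of the log2 fold change ran from −1.096 to 0.58 for miR-127-3p, from −0.89 to 0.44 for miR-134-5p and from −1.13 to 0.28 for miR-409-3p. For miR-411-5p it ran from −1.78 to −0.15. These intervals are not adjusted for the number of miRNAs tested. Without the library of mouse 1069 before injection, the log2 fold change of miR-411-5p was −0.30 (SE 0.38, DESeq2 adjusted p = 0.614), so its direction rests on that library.

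**Figure D1:**
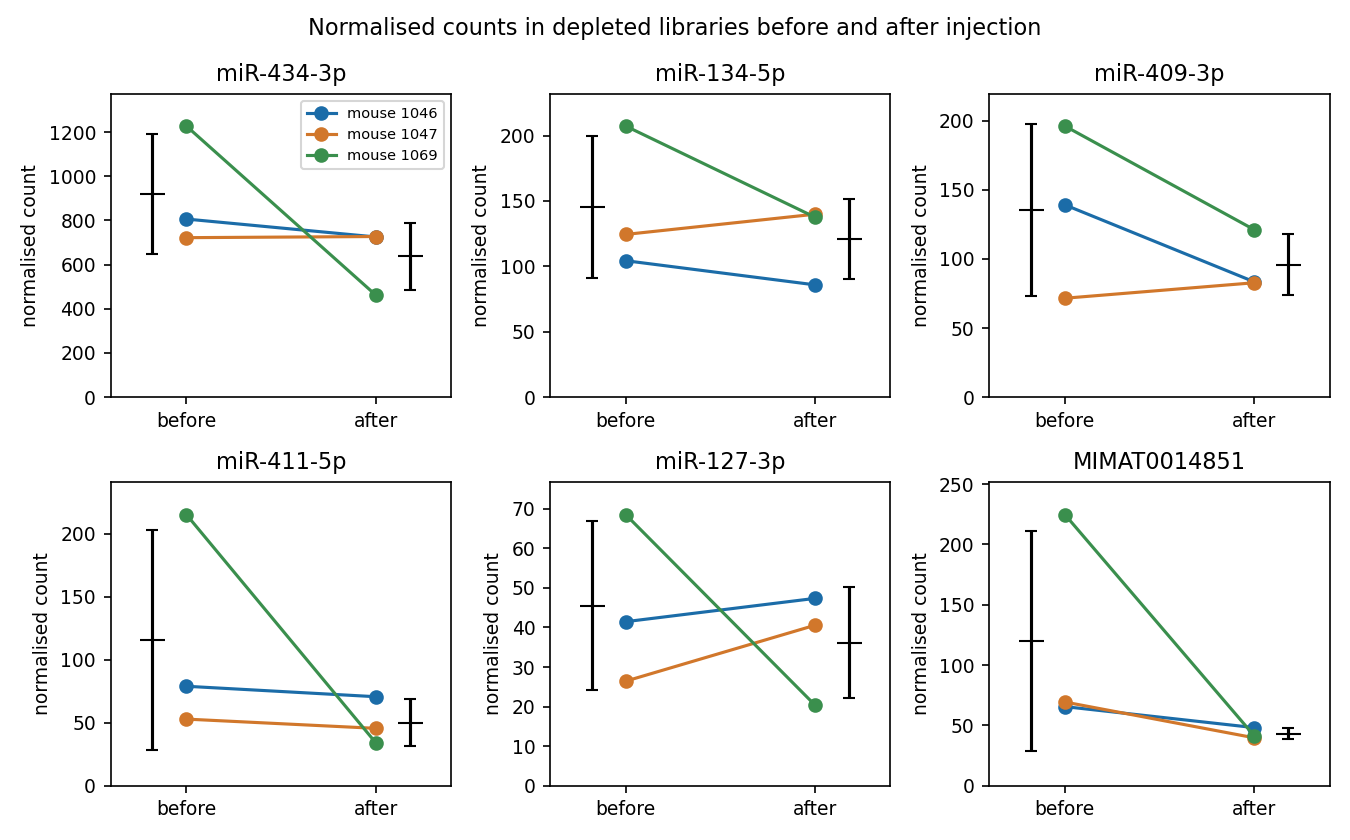
DESeq2-normalised counts in the depleted libraries before and after injection, 1 line per mouse, for 5 members and for the row MIMAT0014851, with the mean and SD (n = 3) in black beside each group. The line of mouse 1069 falls in all 6 panels, from 215 to 34.2 for miR-411-5p, while the lines of mice 1046 and 1047 make smaller steps that differ in direction between panels.

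Markers of blood and tissue cells moved between the same sera. Of 11 marker miRNAs looked for, 9 were listed and 2 were not. Of those listed, miR-122-5p, miR-124-3p and miR-206-3p had no adjusted p and could not be called. Of the rest, 4 were called lower after injection and 0 higher, beside 18 lower (5.81%) and 15 higher (4.84%) of all 310 tested. The log2 fold change was −1.20 for miR-451a, −1.65 for miR-144-3p and −1.07 for miR-16-5p (DESeq2 adjusted p = 0.0006, 3.94e-06 and 0.000882), all called lower. These 3 are abundant in red blood cells, and miR-486a-5p, the remaining erythroid marker, was not listed in any mouse table. A missing row does not show that this miRNA was absent from serum. The study names its human form among the miRNAs that differed in depleted samples. The erythroid sum that follows leaves miR-486a-5p out. The summed normalised count of the erythroid markers was 338511 to 570112 before and 167096 to 231541 after. The ratio of miR-451a to miR-23a-3p, used as an index of haemolysis, was 113, 126.7 and 73.3 before and 43.2, 34.8 and 22.9 after.

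Muscle and other tissue markers were checked in the same way. miR-133a-3p, of muscle, was called lower, with a log2 fold change of −1.64 (DESeq2 adjusted p = 3.94e-06), and the summed level of the 3 muscle markers was 6811 to 13930 before and 2746 to 3676 after. Of the muscle markers, miR-1a-3p was not listed in any mouse table and added nothing to this sum. Its level in serum cannot be read from a missing row. The summed level of the 2 neural markers was 1.101 to 84.5 before and 12.5 to 53.0 after. Liver miR-122-5p was 1.59 to 4.404 before and 2.48 to 7.25 after, and myeloid miR-223-3p 925 to 1351 and 1508 to 1966. The part of these shifts in the members' values was not tested.

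In the undepleted libraries the members were too thinly covered for most tests. DESeq2 called 12 of 108 tested miRNAs (11.1%), 9 higher (8.33%) and 3 lower (2.78%), and miR-434-3p was the only member with an adjusted p. It had 29, 16 and 14 counts before and 17, 26 and 14 after in mice 1046, 1047 and 1069. The log2 fold change was −0.06 (SE 0.43, DESeq2 adjusted p = 0.947) and 0.21 without mouse 1069 before injection. miR-409-3p had 7, 5 and 4 counts before and 2 in each library after, and miR-127-3p 0, 1 and 0 before and 2, 1 and 2 after. For these 2 miRNAs the cpm of the groups did not overlap, on 22 and 6 counts in total. DESeq2 gave them no adjusted p, and its unadjusted p was 0.194 for miR-409-3p and 0.353 for miR-127-3p. The raw counts of miR-127-3p overlapped, and its 0 in mouse 1069 before injection allowed up to 141 cpm, above every level after injection. The groups did not overlap in cpm for 71 of the 442 miRNAs listed in undepleted libraries (16.1%). miR-411-5p had 3, 0 and 4 counts before and 2, 3 and 1 after. miR-134-5p had 1 count, in mouse 1046 after injection, and miR-382-5p had 1 count each in mice 1047 and 1069 after injection. miR-379-5p and miR-136-5p had none. Whether the change over time differed between depleted and undepleted libraries was tested as an interaction. DESeq2 called 0 of 874 miRNAs (0%), with 3 at an unadjusted p below 0.05 and none of these a member, and edgeR also called 0.

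**Figure D2:**
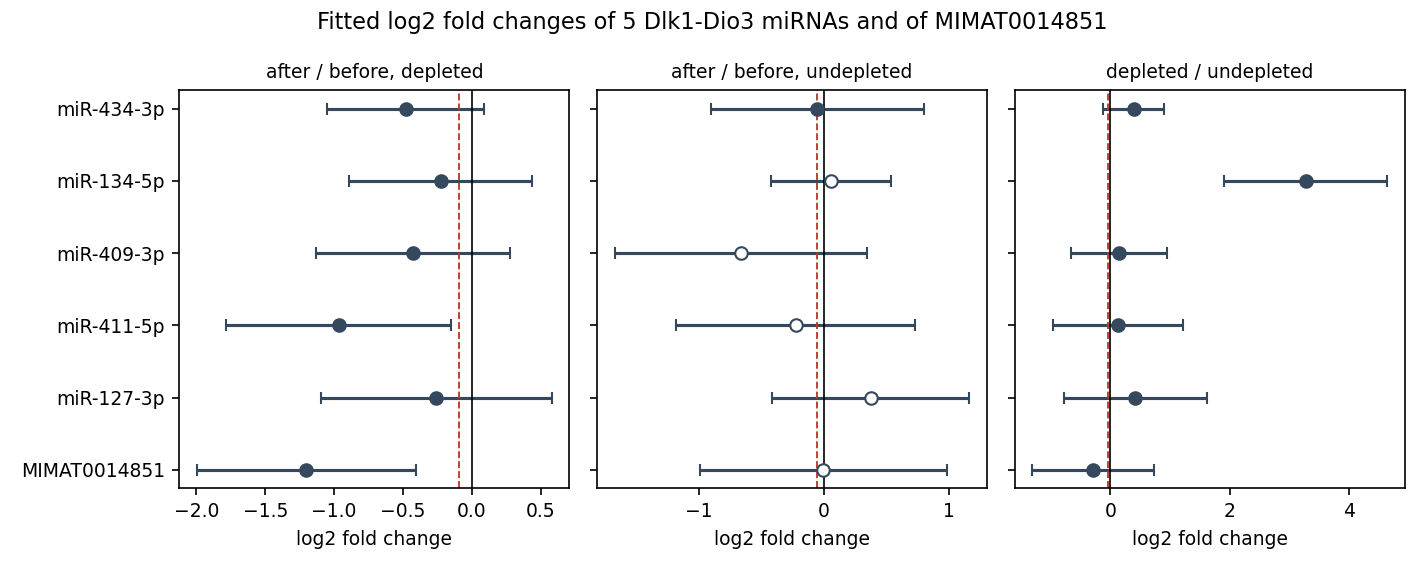
Fitted log2 fold changes with 95% intervals for 5 members and the row MIMAT0014851, after against before injection in depleted and in undepleted libraries, and depleted against undepleted over all 12 libraries. Open circles had no adjusted p, the black line marks 0 and the dashed red line the median of all miRNAs tested. miR-134-5p in the right panel, at 3.28, is the member farthest from 0.

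The depletion of tRNA fragments was compared with the undepleted aliquot of the same serum, to see whether the procedure shifts individual miRNAs. 1 of 6 members tested, miR-134-5p, was higher in the depleted aliquots, and the others did not pass the test. Over all miRNAs, DESeq2 with time point and depletion as terms called 32 of 383 (8.36%), of which 19 were higher (4.96%) and 13 lower (3.39%) in the depleted libraries.

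miR-134-5p had 78, 113 and 130 counts in the depleted libraries before injection and 107, 169 and 209 after it, 806 in all, but 1 count in all 6 undepleted libraries together. Had it kept its share of the depleted aliquot in each serum, 27.8 counts would stand in the undepleted libraries. The share was higher in the depleted aliquot in 6 of 6 sera. Over pooled counts the ratio of the shares was 30.8, with an exact 95% counting interval of 5.51 to 1217. Before injection, with 0 undepleted counts among 208419, the share was at least 5.43-fold higher in the depleted libraries, taking 3 counts over the group as the limit. The fitted log2 fold change, which the prior draws toward 0, was 3.28 (SE 0.70, DESeq2 adjusted p = 4.06e-05). It was 2.52 in the fit paired by serum and 4.07 without the prior, and the call stood under both. TMM factors moved the median of all tested miRNAs from −0.04 to 0.21 and the log2 fold change of miR-134-5p to 3.42.

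None of the other members passed the test. miR-434-3p had 116 undepleted counts where 169 would stand at the depleted share, lower in the undepleted aliquot in 6 of 6 sera, with a log2 fold change of 0.40 (SE 0.26, DESeq2 adjusted p = 0.394). For miR-434-3p it was 0.39 in the fit paired by serum (DESeq2 adjusted p = 0.197). It was 0.67 with TMM factors (DESeq2 adjusted p = 0.0506) and 0.68 in edgeR (adjusted p = 0.0904), scalings that raised the median of all miRNAs as well. Leaving out mice or libraries gave 0.22 to 0.58, with the lowest value without mouse 1046. miR-409-3p, with a similar number of depleted counts to miR-134-5p, 680 against 806, had 22 undepleted counts where 24.5 would stand, and a log2 fold change of 0.15 (SE 0.41, DESeq2 adjusted p = 0.883). For miR-411-5p there were 13 counts against 15.8, and for miR-127-3p 6 against 8.79. The 95% interval of the log2 fold change was −0.66 to 0.96 for miR-409-3p, −0.95 to 1.22 for miR-411-5p, −0.77 to 1.62 for miR-127-3p and −0.12 to 0.91 for miR-434-3p. The interval of miR-134-5p, 1.91 to 4.64, lay above those of these 4 members.

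miR-382-5p went the other way on very few counts. It had 2 counts in the undepleted libraries (5.29 cpm over the 6 pooled) and 0 among 9902053 in the depleted ones, which allows up to 0.303 cpm. Its log2 fold change of −1.67 (SE 0.86) did not pass the test (DESeq2 adjusted p = 0.239). The size of this value is not fixed by 2 counts, being −0.51 in the fit paired by serum, −5.91 without the prior and −5.23 in edgeR (adjusted p = 0.107), and −0.49 without mouse 1069. miR-379-5p, with 2 depleted counts and 0 undepleted, had no adjusted p, and miR-136-5p had no count in either kind of aliquot.

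**Figure D3:**
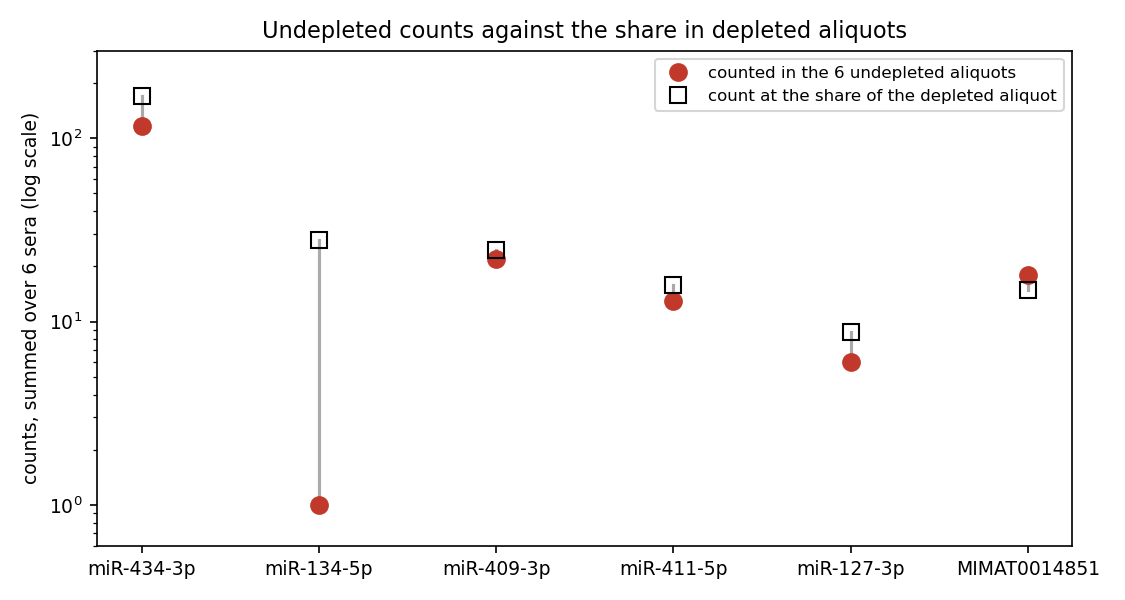
Counts in the 6 undepleted aliquots (filled circles), summed over the sera, beside the count that the share in the depleted aliquot of the same serum would give (open squares), on a log scale. miR-134-5p has 1 count where 27.8 would stand, while miR-409-3p has 22 against 24.5.

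miR-136-5p, the third of the Rtl1-antisense members, was listed in none of the 12 mouse tables. The human tables, to which the same reads could be assigned where a miRNA is the same in both species, listed the human miR-136-5p row (MIMAT0000448) in 12 of 12 libraries. It had 48 to 141 counts in the depleted and 1 to 7 in the undepleted libraries, 442 in all. Exactly 1 mouse row, MIMAT0014851, held the same count as this human row in every library. The tables pair that accession with no name. In the RefSeq annotation, miR-136-5p is overlapped over 20 bases by a miRNA on the opposite strand, miR-3071-3p (chr12:109595329-109595350), whose sequence stands above. No other member has a mature miRNA opposite to it, and the table of 1679 mature miRNA names holds 36 such pairs. How the counting treated strand is not stated in the sources used here, so whether reads of miR-136-5p are held under MIMAT0014851 cannot be told from the counts.

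For the other members except miR-434-3p, for which no human row was compared, the human rows gave nearly the same counts as the mouse rows. They were identical in 12 of 12 libraries for miR-127-3p, miR-379-5p, miR-382-5p, miR-409-3p and miR-411-5p. For miR-134-5p they were identical in 8 libraries, and the mouse row was higher by up to 5 counts in the remaining 4, with 807 mouse counts against 794 human counts in total. The human rows also held counts before any human cells were injected. miR-134-5p had 318 human-table counts before and 476 after, and miR-409-3p 308 and 394, so a count in the human table does not mark tumour-derived miRNA for these members.

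The row MIMAT0014851 was lower in the depleted libraries after injection. It had 49, 63 and 141 counts in mice 1046, 1047 and 1069 before and 60, 48 and 63 after, and in cpm 36.3, 34.6 and 150 before and 33.7, 27.6 and 27.7 after. The groups did not overlap in cpm, which held for 122 of the 310 miRNAs tested in these libraries (39.4%), while 10.6% were called. The highest value was that of mouse 1069 before injection, as for miR-411-5p. The log2 fold change was −1.20 (SE 0.41, DESeq2 adjusted p = 0.0247), lower in 3 of 3 mice. The call was lost in the fit with mouse as a replicate block (−1.07, adjusted p = 0.0973) and without the library of mouse 1069 before injection (−0.52, adjusted p = 0.256). It was also lost on leaving out each of the 3 libraries after injection in turn, at −1.22, −1.03 and −1.03, and without mouse 1047 or 1069, at −1.23 and −0.47. The call stood under edgeR (−1.37, edgeR adjusted p = 0.0132), TMM factors, the count filter and no prior. It also stood without mouse 1046, and without the library before injection of mouse 1046 or of mouse 1047. Between aliquots MIMAT0014851 had 18 undepleted counts where 14.9 would stand, with a log2 fold change of −0.29 (SE 0.52, DESeq2 adjusted p = 0.856).

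The members' levels were also compared with each other across the 6 depleted libraries, which come from 3 mice and share the high library of mouse 1069. Pearson's r of the log2 normalised counts was 0.90 between the Rtl1-antisense members miR-127-3p and miR-434-3p and 0.58 between the Mirg members miR-134-5p and miR-409-3p. Between members of different groups it ran from 0.24, for miR-127-3p and miR-134-5p, to 0.93, for miR-411-5p and miR-434-3p. Among the 209 miRNAs that averaged 50 normalised counts or more, the 5 whose pattern was most like the mean of the members with any depleted count, miR-379-5p included, were MIMAT0003170 (r = 0.960), MIMAT0000153 (0.955), MIMAT0004664 (0.948), MIMAT0004532 (0.945) and MIMAT0000378 (0.926), which the tables give without names. With miR-379-5p left out of the mean, MIMAT0000153 came first (r = 0.992). Whether any of the 5 miRNAs most like the members belongs to the same region was not determined. These correlations are descriptions over 6 libraries.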

How the data were processed

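Each mouse gave 100 μl of blood per time point, and RNA of 50 μl serum went into TruSeq small RNA libraries amplified over 15 PCR cycles. Per the labels and the study's methods, the authors trimmed adaptors with Cutadapt 1.8.1, discarded reads under 15 bases, filtered on quality, mapped with Bowtie 1.1.2 without mismatches and counted reads per mature miRNA by miRBase 20 coordinates on GRCm38/mm10 and GRCh37/hg19. The values are the raw counts deposited by the authors, and how reads matching several places were counted is not stated. A miRNA that a table does not list was taken as 0.

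Counts were fitted with DESeq2 1.42.0 in R 4.3.3 over all listed mouse miRNAs, with the prior on fold changes, the Wald test and Benjamini-Hochberg adjustment. A call needed an adjusted p below 0.05 and a 2-fold change, except for the interaction, fitted without prior or fold limit. Depleted and undepleted libraries were fitted apart, and together for depletion (terms: time point, depletion). Alternatives were edgeR 4.0.16, TMM factors, a filter of 4 counts in 3 libraries, no prior, no fold limit, a block for mouse or serum, and leaving out each mouse and library.

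The mouse numbers come from the labels and pair libraries of 1 mouse or 1 serum. Deviations from group means correlated at 0.64 to 0.91 between aliquots of 1 serum, and at −0.42 to 0.10 between time points of 1 mouse. Within each group, replicates are separate mice. The main depletion fit over all libraries took them as independent, although mice and sera recur among them. The fit with a block for serum was the alternative.

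By the rule for named miRNAs, the text gives all 8 members, the 5 miRNAs most like them and the human rows of 7 members. The members and lists were chosen with earlier results of these data known. Member names come with the accessions, and marker names follow miRBase. The other miRNAs of the region and the other hairpin arms were not picked out, because no table used pairs accessions with names. Some of the 5 miRNAs most like the members may therefore be among them. The row MIMAT0014851 was added after its values were seen. Sequences and positions are from RefSeq GRCm38.p6 and host genes from GENCODE M21.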

Additional observations from a re-analysis of the deposited data

Results flagged for a closer look

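In 7 of 16 sets of 6 libraries, a library lay farther from the others than Dixon's 95% critical value of 0.625 for 6 values allows. That value holds for normally distributed values, which sets of few counts or mostly zeros are not. The sets are not independent, since the members share libraries and the sum contains the members. MIMAT0014851 was also added after its values were seen. The number of sets marked is therefore not set against a chance rate.

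Of these, 5 concerned mouse 1069 before injection. In its depleted library miR-411-5p was at 144 cpm against 22.9 to 49.4 cpm in the others, MIMAT0014851 at 150 cpm against 27.6 to 36.3 cpm, and the sum of the 8 members at 1279 cpm against 498 to 719 cpm. In the undepleted library of the same serum, miR-409-3p was at 188 cpm against 29.4 to 72.0 cpm and miR-411-5p at 188 cpm against 0 to 57.7 cpm, each on 4 counts.

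The remaining 2 rest on 1 or 2 counts in a set that was otherwise at 0. miR-134-5p was at 14.7 cpm in the undepleted library of mouse 1046 after injection, and miR-379-5p at 1.48 cpm in the depleted library of mouse 1046 before injection.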

How the results depend on the processing

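No member was called after against before injection in depleted libraries under edgeR, TMM factors, the count filter, no prior, no fold limit or the replicate block by mouse. Leaving out libraries or mice gave 0 to 1 called, the 1 being miR-411-5p without mouse 1047 before injection. For miR-411-5p the replicate block gave −0.84 (DESeq2 adjusted p = 0.262), TMM factors −0.89 and the count filter −0.93. The fit without prior gave −1.20 (DESeq2 adjusted p = 0.11) and edgeR −1.10 (edgeR adjusted p = 0.0695). Leave-out ranges of the log2 fold change were −0.46 to 0.27 for miR-127-3p, −0.39 to 0.10 for miR-134-5p, −1.33 to −0.13 for miR-411-5p and, for miR-434-3p in undepleted libraries, −0.48 to 0.25, so its direction is not fixed. For depletion they were 2.48 to 3.49 for miR-134-5p, called each time, −0.000182 to 0.37 for miR-409-3p, −0.19 to 0.64 for miR-411-5p and −0.65 to 0.20 for MIMAT0014851. Over all miRNAs, calls moved from 33 to 52 in depleted libraries, from 12 to 21 in undepleted ones and from 32 to 55 for depletion without the fold limit, and leave-outs gave 11 to 37, 1 to 15 and 19 to 33. In the depletion comparison TMM factors and edgeR raised the median of all miRNAs tested from −0.04 to 0.21 and 0.28, and calls split 32 higher and 10 lower (TMM) and 34 and 10 (edgeR), against 19 and 13. The cause was not tested. In undepleted libraries, depth left 1 member with an adjusted p between time points.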
